A study of Rattus norvegicus with 40 samples.

Results

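The collagens and the enzymes that crosslink, cut and protect the collagen network were followed in cultured neonatal rat ventricular myocytes (NRVMs) under coverslip hypoxia. Genes were taken where a probe set carried 1 gene symbol of the form Col, Lox, Timp, Mmp or Adamts with its number, and each gene was followed by the probe set of highest mean intensity over all arrays. The rule found 78 of the 14217 genes with such a probe set: 41 collagen chains, 4 lysyl oxidases, 4 tissue inhibitors of metalloproteinases (TIMPs), 17 matrix metalloproteinases (MMPs) and 12 ADAMTS proteases. NRVMs are heart muscle cells isolated from newborn rat ventricles, and in coverslip hypoxia a glass coverslip laid on the culture cuts the cells below it off from oxygen, fresh medium and washout, as a model of ischemia.

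The 40 Affymetrix arrays held 10 groups of 4: ischemia for 0, 10, 30, 60 and 120 min, and ischemia+reperfusion labelled with the same 5 times. Every group held 2 cell preparations with duplicate arrays of each, and each 0 min group is the reference of its own arm. No genotype, drug or strain is given, and all groups are the same isolated cells. Whether duplicates are separate cultures, the length of reperfusion and what the minutes of that arm refer to are not in the labels. Duplicates were averaged, so n is 2 preparations a group. The fit held a term for the preparation, with equal preparation numbers taken as the same preparation in all groups, which the labels do not state. On that assumption the p-values measure how the differences between groups vary from one preparation to the other.

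The collagen network gives the heart its tensile frame. Fibrillar collagens form its cables, network-forming collagens build basement membranes, and fibril-associated collagens decorate the cables. Prolyl and lysyl hydroxylases modify the new chains inside the cell, and lysyl oxidases crosslink the fibers outside it. MMPs and ADAMTS proteases cut collagens and proteoglycans, and TIMPs inhibit them. In the heart much of this matrix is made by fibroblasts, which are also found in NRVM cultures.

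Levels are given as log2(intensity + 16) after quantile normalization, so a value of 4 is the floor. Of the 78 genes, 58 had a mean above the filter (6.48 on this scale, an intensity of 73.2) and were tested: 10 of 11 fibrillar collagens, 7 of 8 basement membrane collagens, 10 of 22 other collagens, all 4 lysyl oxidases, all 4 TIMPs, 12 of 17 MMPs and 11 of 12 ADAMTS proteases. Mmp10, Mmp28 and Col19a1 were at the floor on all 40 arrays, and Mmp13, a collagenase, was dim at a mean of 6.18 and was not tested. The other untested genes were given no comparison.

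**Figure D1:**
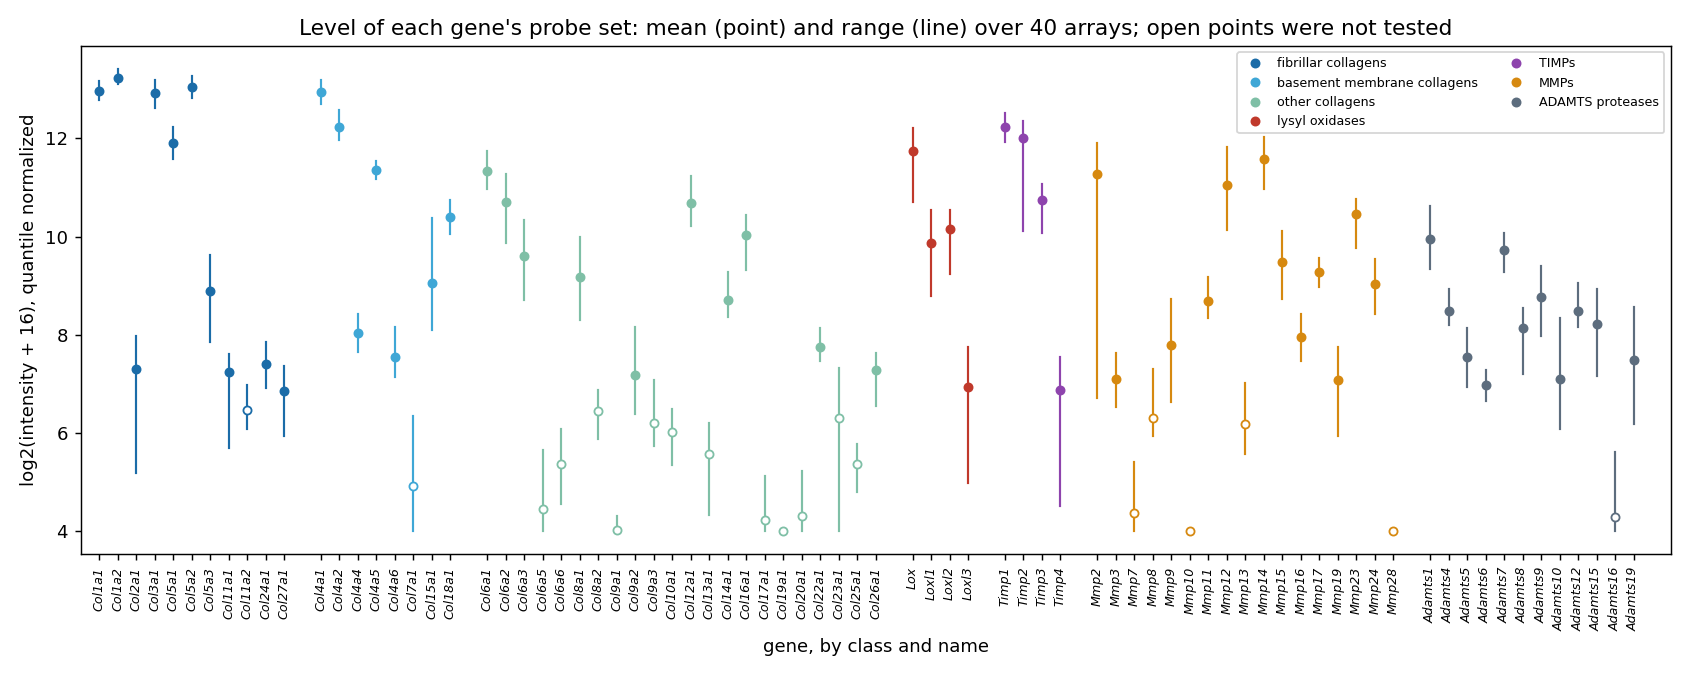
Level of each gene's probe set on the log2(intensity + 16) scale, as the mean (point) and the range (line) over 40 arrays, by class; open points were below the filter and were not tested. Levels of different probe sets are not comparable with each other. The long downward lines of Mmp2 (to 6.71) and Timp2 (to 10.10) each come from 1 array of ischemia 0 min.

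That array, of preparation 1, duplicate 1, stood apart from the others. Its median correlation with the other arrays was 0.872, against 0.960 to 0.979 for the remaining arrays. On it the probe sets of one gene often held each other's level. Mmp2, a gelatinase, is read by 2 tested probe sets. The followed one stood at 6.71 on this array and at 11.53, 11.22 and 11.21 on the other 3 ischemia 0 min arrays, while the other one stood at 11.51 there and at 7.24, 6.76 and 7.22. Timp2, an inhibitor of MMPs that also takes part in Mmp2 activation, did the same: the followed probe set was 10.10 there against 12.02, 11.97 and 12.02, and the other one 12.14 against 10.04, 9.97 and 10.15. Of the 20 member genes with probe sets that differed by over 0.5 on the other 3 arrays, 7 were closer to an exchanged order on this array (Col11a1, Col2a1, Lox, Mmp2, Mmp23, Mmp24 and Timp2), and 0 were on each of the other 3 ischemia 0 min arrays. Over all genes with exactly 2 probe sets that differed by over 1.5, 207 of 1501 (13.8%) were closer to the exchanged order on this array, against 0 to 7 genes on each of the other 39 arrays. This check was chosen after the values were seen, and how the exchange arose was not tested. Ischemia results that rest on the array are therefore given with and without it.

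**Figure D2:**
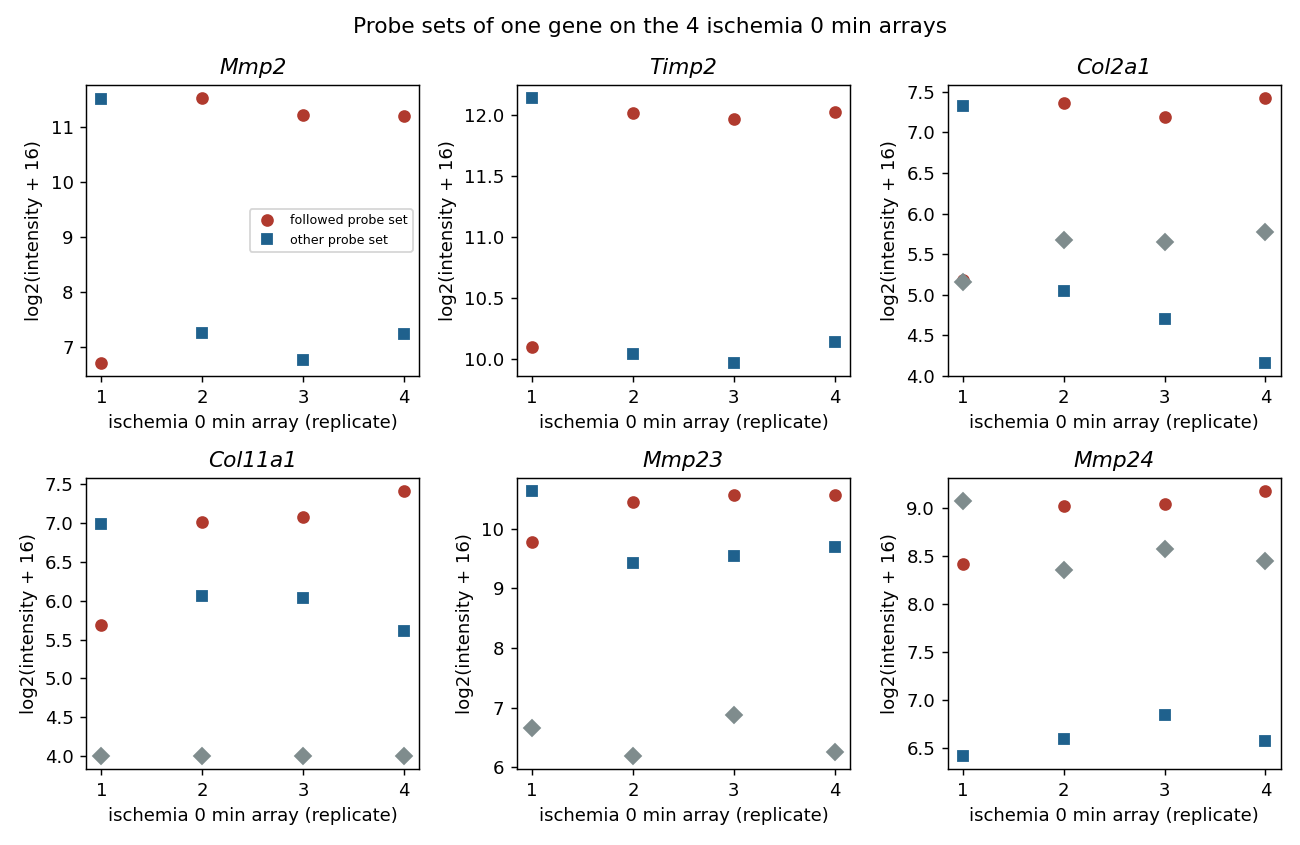
Level of each probe set of 6 member genes on the 4 ischemia 0 min arrays, on the log2(intensity + 16) scale; the red circles are the followed probe set, the blue squares and gray diamonds the gene's other probe sets. On replicate 1 (preparation 1, duplicate 1) the followed probe set lies near the usual level of another one of its gene, as in Mmp2 with 6.71 and 11.51.

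Other arrays lay nearer to another group than to their own: ischemia 120 min preparation 2, duplicate 2 lay nearest to ischemia+reperfusion 60 min, and preparation 2, duplicate 1 of ischemia+reperfusion lay nearest to ischemia 120 min at 120 min, to its own arm's 0 min at 10 min and to its own arm's 60 min at 30 min. These 4 had the widest gaps. In all, 16 of the 40 arrays were nearer to another group than to their own. Array medians of the deposited intensities ranged from 101 to 171. The cardiomyocyte markers checked the label: 9 of 9 measured genes, among them Myh6, Tnnt2 and Ryr2, were tested, with means from 11.43 to 13.58. Markers of fibroblasts were measured too, such as Dcn at 12.34, Lum at 12.16 and Vim at 13.28.

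At 120 min of ischemia more of the matrix genes rose than fell, and most did not pass the test. Of the 58 tested members, 13 rose (22.4%) and 1 fell (1.7%), with an adjusted p under 0.05, and 44 did not pass; of all 18625 probe sets tested, 6.45% rose and 6.48% fell. The median change of the members was 0.24 on the log2 scale, against 0.00 over all probe sets, and 49 of 58 lay above 0. In ischemia+reperfusion, 5 of 58 rose (8.6%) and 0 fell at 120 min, where 3.5% and 3.68% of all probe sets rose and fell, and the median change was 0.05 against -0.02. The genes that rose in ischemia were Lox, Loxl2, Col5a1, Col4a2, Col6a1, Col6a2, Col12a1, Col14a1, Col16a1, Mmp17, Adamts1, Adamts4 and Adamts10, and Adamts19 fell. Lox, Loxl2, Col12a1 and Col16a1 also rose in ischemia+reperfusion, with Adamts9. All 4 arrays of 120 min lay above all 4 of 0 min for 19 of 58 members in ischemia (9.61% of all probe sets) and for 9 of 58 in ischemia+reperfusion (7%). The arms share no array at these times, but they share the variance estimate and the preparation numbers. The labels do not say whether equal numbers are the same preparation. All 14 ischemia calls held without the array that stood apart, and Col3a1 and Adamts7 joined them (16 in all). Without ischemia 120 min preparation 2, duplicate 1, 9 genes were called, and without ischemia+reperfusion 0 min preparation 2, duplicate 2, the count in that arm was 8. With no term for the preparation, the counts were 5 in ischemia (Adamts10, Col14a1, Lox, Loxl2 and Mmp17) and 3 in ischemia+reperfusion (Col16a1, Lox and Loxl2).

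Quantile normalization bears on these counts. On the deposited scale the median change of all probe sets at 120 min was -0.22 in ischemia and -0.12 in ischemia+reperfusion, and the members' median was 0.03 and -0.05. Relative to all probe sets the members' median was then 0.26 and 0.08, against 0.24 and 0.07 after quantile normalization. On the deposited scale 4 members were called in ischemia, 2 of them higher, and 1 in ischemia+reperfusion. Of the calls made after quantile normalization, those of Lox, Adamts10 and Adamts19 held in ischemia and that of Loxl2 in ischemia+reperfusion. The collagen calls at 120 min were all lost on that scale, as were Loxl2 in ischemia and Lox in ischemia+reperfusion.

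**Figure D3:**
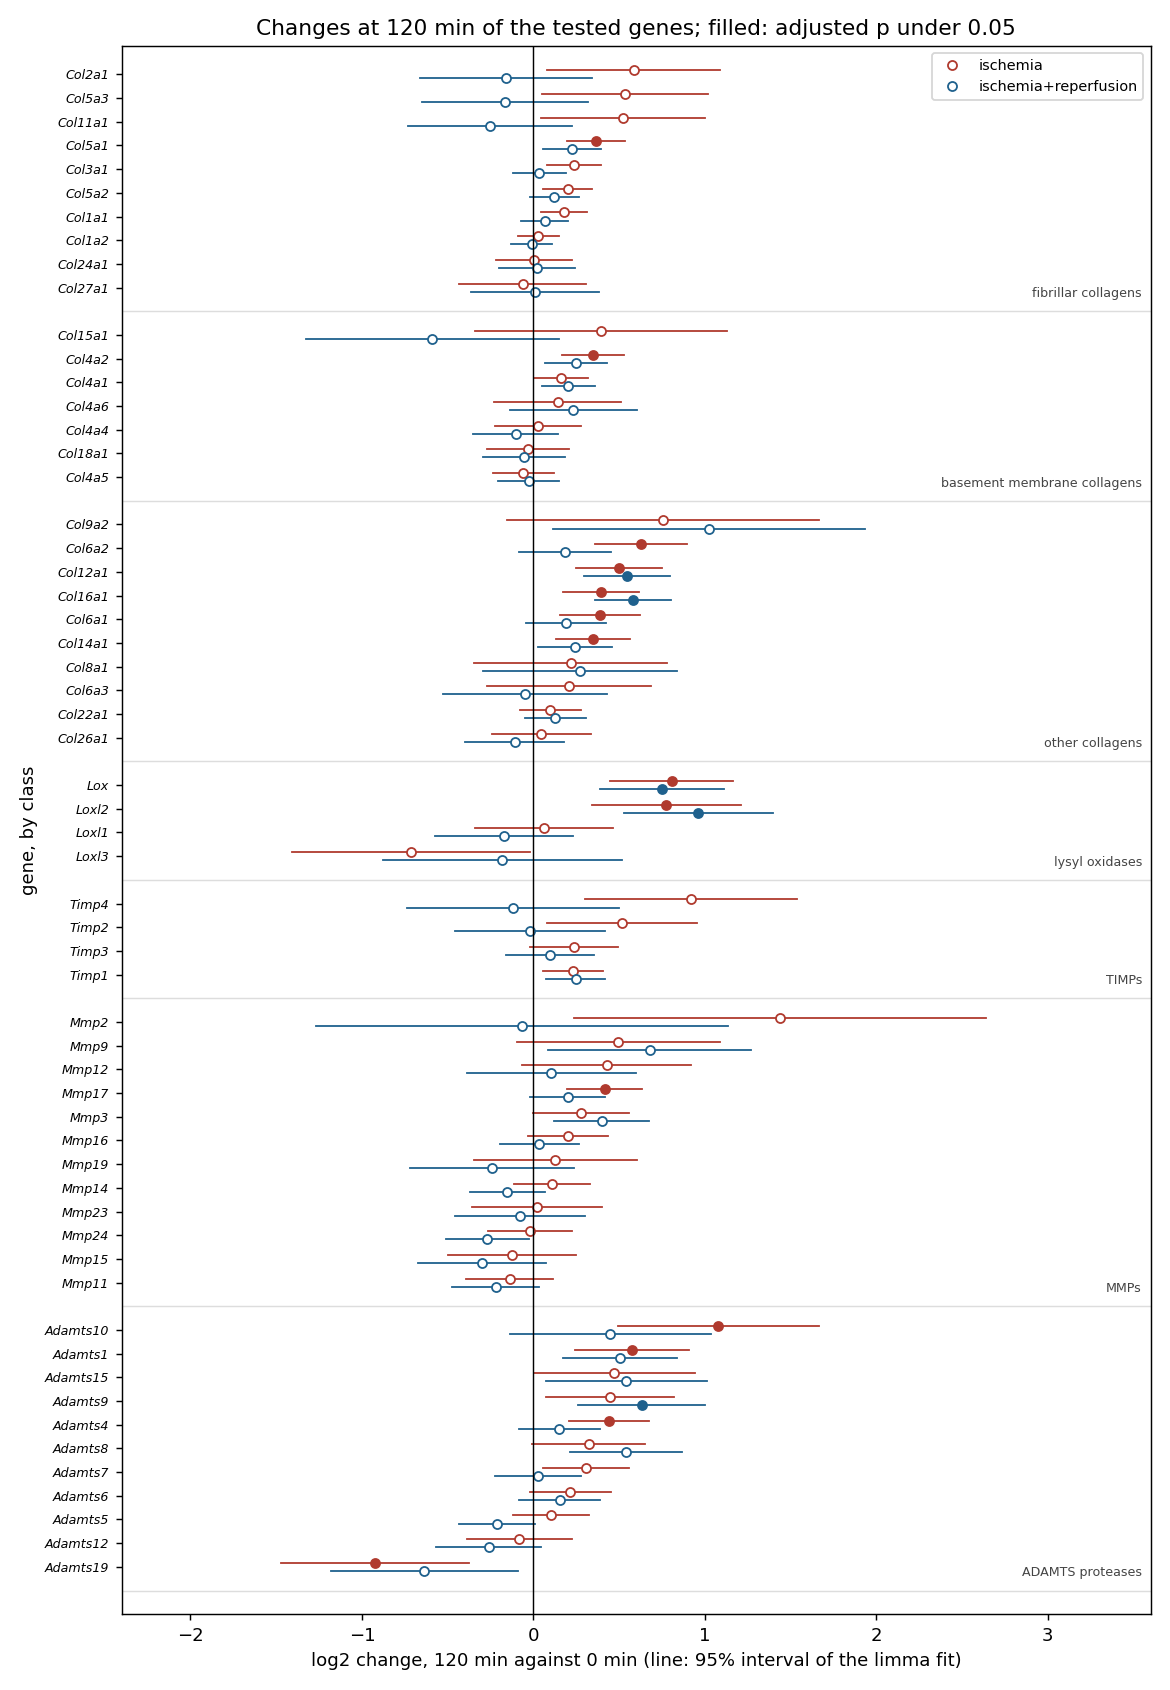
log2 change from 0 to 120 min of the 58 tested genes, by class, in ischemia (red) and ischemia+reperfusion (blue); lines are 95% intervals of the limma fit over 2 preparations a group, and filled points had an adjusted p under 0.05. In ischemia 49 of 58 points lie above 0; Mmp2 has the widest interval, which rests on the array that stood apart.

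Promoters are shown for 3 of the genes called at 120 min, to show the windows in which motifs were searched: Col16a1, called in both arms, Col6a1, called in ischemia, and Adamts9, called in ischemia+reperfusion. The sequences are from RefSeq (GRCr8, rat), 250 bases before to 50 after the gene's start, 5′ to 3′ on the gene's strand: Col16a1 at chr5:147672846-147673145 (+), Col6a1 at chr20:11905440-11905739 (+) and Adamts9 at chr4:127019827-127020126 (-). Capitals mark a match to ACGTG, the core letters of hypoxia response elements, or to TGACTCA, the AP-1 motif, on either strand.
Col16a1: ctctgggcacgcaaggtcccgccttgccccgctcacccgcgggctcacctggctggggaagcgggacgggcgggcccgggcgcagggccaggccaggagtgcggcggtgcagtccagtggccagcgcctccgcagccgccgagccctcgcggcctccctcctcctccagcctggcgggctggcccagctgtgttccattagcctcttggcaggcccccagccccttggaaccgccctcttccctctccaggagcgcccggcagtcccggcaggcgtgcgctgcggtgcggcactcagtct
Col6a1: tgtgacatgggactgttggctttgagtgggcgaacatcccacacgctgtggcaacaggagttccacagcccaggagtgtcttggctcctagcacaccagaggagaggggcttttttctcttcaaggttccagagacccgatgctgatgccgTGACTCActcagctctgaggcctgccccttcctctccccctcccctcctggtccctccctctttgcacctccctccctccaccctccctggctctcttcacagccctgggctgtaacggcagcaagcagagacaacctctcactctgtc
Adamts9: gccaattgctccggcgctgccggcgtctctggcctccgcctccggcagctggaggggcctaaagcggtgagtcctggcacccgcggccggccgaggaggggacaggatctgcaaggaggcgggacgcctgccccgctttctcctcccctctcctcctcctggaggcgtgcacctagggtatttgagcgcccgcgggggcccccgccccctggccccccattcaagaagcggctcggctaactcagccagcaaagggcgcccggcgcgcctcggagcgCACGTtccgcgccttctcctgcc
Of the 78 members, 56 matched a promoter of this table by symbol, and 8 of these were called at 120 min in either arm; Lox, Loxl2, Col12a1, Col6a2 and the other called genes without an entry are not in these counts. ACGTG stood in 1 of the 8 (12.5%, Adamts9), in 7 of the 56 (12.5%) and in 19.7% of all 27457 promoters of this length. TGACTCA stood in 1 of the 8 (Col6a1), in 6 of the 56 (10.7%) and in 4.5% of all promoters. Neither motif was found in the Col16a1 window. A match describes the letters only.

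The fibrillar collagens showed small differences. Col5a1, a chain of collagen V, which sets the diameter of collagen fibrils, was 11.97, 11.86, 11.84 and 11.58 on the ischemia 0 min arrays (preparation 1, duplicates 1 and 2, then preparation 2) and 12.18, 12.23, 12.14 and 12.14 at 120 min. All 4 later arrays were above all 4 earlier ones, and the change was 0.36 ± 0.08 (SE, n = 2 preparations), or 1.29-fold, with an adjusted p of 0.0154. In ischemia+reperfusion the change was 0.22 and the adjusted p was 0.105. The main chains of the cardiac fibers did not pass the test in ischemia: Col1a1 changed by 0.18 ± 0.06 (adjusted p = 0.0791), Col1a2 by 0.03 ± 0.05, Col3a1 by 0.24 ± 0.07 (adjusted p = 0.0508) and Col5a2 by 0.20 ± 0.07 (adjusted p = 0.0668). Col3a1 was called without the array that stood apart (0.28, adjusted p = 0.0370). A further probe set of Col1a1, not the followed one, was called in ischemia at 0.38 (adjusted p = 0.0102), as was the other probe set of Col5a1 at 0.51 (adjusted p = 0.0149). In ischemia+reperfusion the changes of these chains were 0.07 for Col1a1, -0.01 for Col1a2, 0.04 for Col3a1 and 0.12 for Col5a2. On the deposited scale the ischemia changes turned below 0, to -0.07 for Col1a1, -0.22 for Col1a2, -0.02 for Col3a1 and -0.03 for Col5a2, where the median of all probe sets was -0.22. Col2a1 and Col11a1, whose points lie at 0.59 and 0.52 in ischemia, stood at 0.04 and 0.19 without the array that stood apart, and neither was called either way.

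Among the basement membrane collagens, Col4a2 rose in ischemia. Its ischemia 0 min values were 12.23, 12.19, 12.26 and 11.97, and its 120 min values 12.58, 12.45, 12.48 and 12.54, so the groups did not overlap. The change was 0.35 ± 0.08 (adjusted p = 0.0223), and without ischemia 0 min preparation 2, duplicate 2 it was 0.28 with an adjusted p of 0.0659. In ischemia+reperfusion Col4a2 changed by 0.25 ± 0.08 (adjusted p = 0.0962). Its partner chain Col4a1 changed by 0.16 ± 0.07 (adjusted p = 0.145) in ischemia and by 0.20 (adjusted p = 0.107) in ischemia+reperfusion. Col18a1, the source of endostatin, lay at -0.03 and -0.05 in the 2 arms. Col15a1 lay at 0.39 ± 0.33 in ischemia and -0.59 ± 0.33 in ischemia+reperfusion, and was called in neither.

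Of the 10 other collagens tested, 5 rose in ischemia, and all 10 lay above 0. Col6a1 and Col6a2 are chains of collagen VI, which forms beaded filaments between cells and matrix. Col6a2 stood at 10.75, 10.51, 10.69 and 10.24 at ischemia 0 min and at 11.27, 11.24, 11.003 and 11.20 at 120 min. The groups did not overlap, and the change was 0.63 ± 0.12, or 1.55-fold (adjusted p = 0.0115). Col6a1 rose by 0.39 ± 0.11 (adjusted p = 0.0365), which was lost without any of 3 single arrays (adjusted p from 0.0504 to 0.0818 without ischemia 0 min preparation 1, duplicate 2, 0 min preparation 2, duplicate 2, or 120 min preparation 2, duplicate 1). In ischemia+reperfusion both changed by 0.19 and neither was called, and the difference between the arms in the change of Col6a2, -0.44 ± 0.17, missed the threshold (adjusted p = 0.422). Col8a1, a short-chain network collagen, changed by 0.22 and 0.27 with SE 0.26 and was not called.

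The fibril-associated collagens XII, XIV and XVI rose in ischemia. Col12a1 was 10.77, 10.70, 10.47 and 10.30 at ischemia 0 min and 11.21, 11.09, 11.10 and 10.84 at 120 min. Its change was 0.50 ± 0.11 in ischemia (1.41-fold, adjusted p = 0.0203) and 0.55 ± 0.11 in ischemia+reperfusion (1.46-fold, adjusted p = 0.0212), and in both arms the groups did not overlap. The other tested probe set of Col12a1 was called in neither arm. It lay at 0.04 in ischemia (adjusted p = 0.896) and at 0.43 in ischemia+reperfusion (adjusted p = 0.158). Col16a1 was 9.92, 9.71, 9.73 and 9.78 at ischemia 0 min and 10.10, 10.28, 10.27 and 10.07 at 120 min, with no overlap. Its change was 0.40 ± 0.10 in ischemia (adjusted p = 0.0281) and 0.58 ± 0.10 in ischemia+reperfusion (1.5-fold, adjusted p = 0.0127). It was also called at 60 min of ischemia+reperfusion, at 0.41 (adjusted p = 0.0433), and its arrays at 0 min of that arm were 9.96, 9.92, 9.33 and 9.88. The ischemia call of Col16a1 was lost without 120 min preparation 1, duplicate 2 (adjusted p = 0.0513) or preparation 2, duplicate 1 (0.0516), and the 60 min call without ischemia+reperfusion 0 min preparation 2, duplicate 1 (0.28, adjusted p = 0.0947) or 60 min preparation 1, duplicate 1 (0.39, adjusted p = 0.0640). Col14a1 rose by 0.35 ± 0.10 in ischemia (adjusted p = 0.0403), lost without 0 min preparation 1, duplicate 2, 0 min preparation 2, duplicate 1, or 120 min preparation 2, duplicate 1 (changes of 0.26, 0.30 and 0.24). Its other tested probe set was called too, at 0.95 (adjusted p = 0.0105).

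Lox and Loxl2, which crosslink collagen and elastin, were higher in both arms. Lox was 11.18, 11.43, 11.28 and 10.70 at ischemia 0 min and 12.07, 12.03, 12.12 and 11.60 at 120 min. At ischemia+reperfusion 0 min it was 11.59, 11.49, 11.27 and 10.92, and at 120 min 12.12, 11.92, 12.21 and 12.02. The groups did not overlap in either arm, and the change was 0.81 ± 0.16 in ischemia (1.75-fold, adjusted p = 0.0134) and 0.75 ± 0.16 in ischemia+reperfusion (1.68-fold, adjusted p = 0.0254). Without the array that stood apart the ischemia change was 0.74 ± 0.17 (adjusted p = 0.0181). Loxl2 was 9.89, 10.06, 9.40 and 9.26 at ischemia 0 min and 10.48, 10.39, 10.47 and 10.36 at 120 min, and in ischemia+reperfusion it went from 9.73, 9.66, 9.42 and 9.24 to 10.49, 10.33, 10.55 and 10.53. Its changes were 0.78 ± 0.20 (1.71-fold, adjusted p = 0.0286) and 0.96 ± 0.20 (1.95-fold, adjusted p = 0.0204). On the deposited scale Lox was called in ischemia only, and Loxl2 in ischemia+reperfusion only. The other probe set of Lox gave 0.43 in ischemia (adjusted p = 0.157), 0.56 without the array that stood apart (adjusted p = 0.0408), and 0.78 in ischemia+reperfusion (adjusted p = 0.0391), and that of Loxl2 gave 0.64 (adjusted p = 0.0771), 0.68 without that array (adjusted p = 0.0525), and 1.04 (adjusted p = 0.0221). Loxl1, which acts on elastic fibers, lay at 0.06 ± 0.18 and -0.17 ± 0.18 and was not called, and Loxl3 lay at -0.71 ± 0.32 (adjusted p = 0.149) and -0.18 ± 0.32.

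Lox and Loxl2 lay above 0 min from 10 min on. In ischemia all 16 later arrays of Lox (11.60 to 12.12) and of Loxl2 (10.06 to 10.48) lay above their 4 arrays of 0 min. This held for 3 of the 58 members (Lox, Loxl2 and Mmp17), and for 0.956% of all probe sets. In ischemia+reperfusion it held for 15 of 16 arrays of Lox and of Loxl2; the exception in both was the 10 min array of preparation 2, duplicate 1 (11.46 and 9.72), which lay nearest to the 0 min group of its arm over all genes. Lox lay 0.60, 0.76, 0.64 and 0.81 above 0 min at 10, 30, 60 and 120 min of ischemia, and 0.56, 0.55, 0.48 and 0.75 in ischemia+reperfusion. Before 120 min the adjusted p was from 0.0798 to 0.213 for Lox and from 0.0574 to 0.249 for Loxl2, so these were not called. Loxl1 lay at -0.48, -0.41 and -0.19 at 10, 30 and 60 min of ischemia and Loxl3 at -0.83, 0.01 and 0.13, none of them called. Among the collagens, Col16a1 lay at 0.12, 0.33 and 0.32 at these times, Col12a1 at 0.03, 0.01 and 0.07, Col5a1 at 0.14, -0.01 and -0.09, and Col6a2 at 0.18, 0.02 and 0.02. Set directly against 10 min, 120 min of ischemia gave 0.47 ± 0.11 for Col12a1 (adjusted p = 0.0808), 0.45 ± 0.12 for Col6a2 (adjusted p = 0.0985), 0.21 ± 0.16 for Lox (adjusted p = 0.553) and 0.14 ± 0.20 for Loxl2 (adjusted p = 0.785). No member was called in that comparison, although 22 had an unadjusted p under 0.05 in limma, and 0.698% of all probe sets were called. The changes within an arm share the 0 min arrays.

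**Figure D4:**
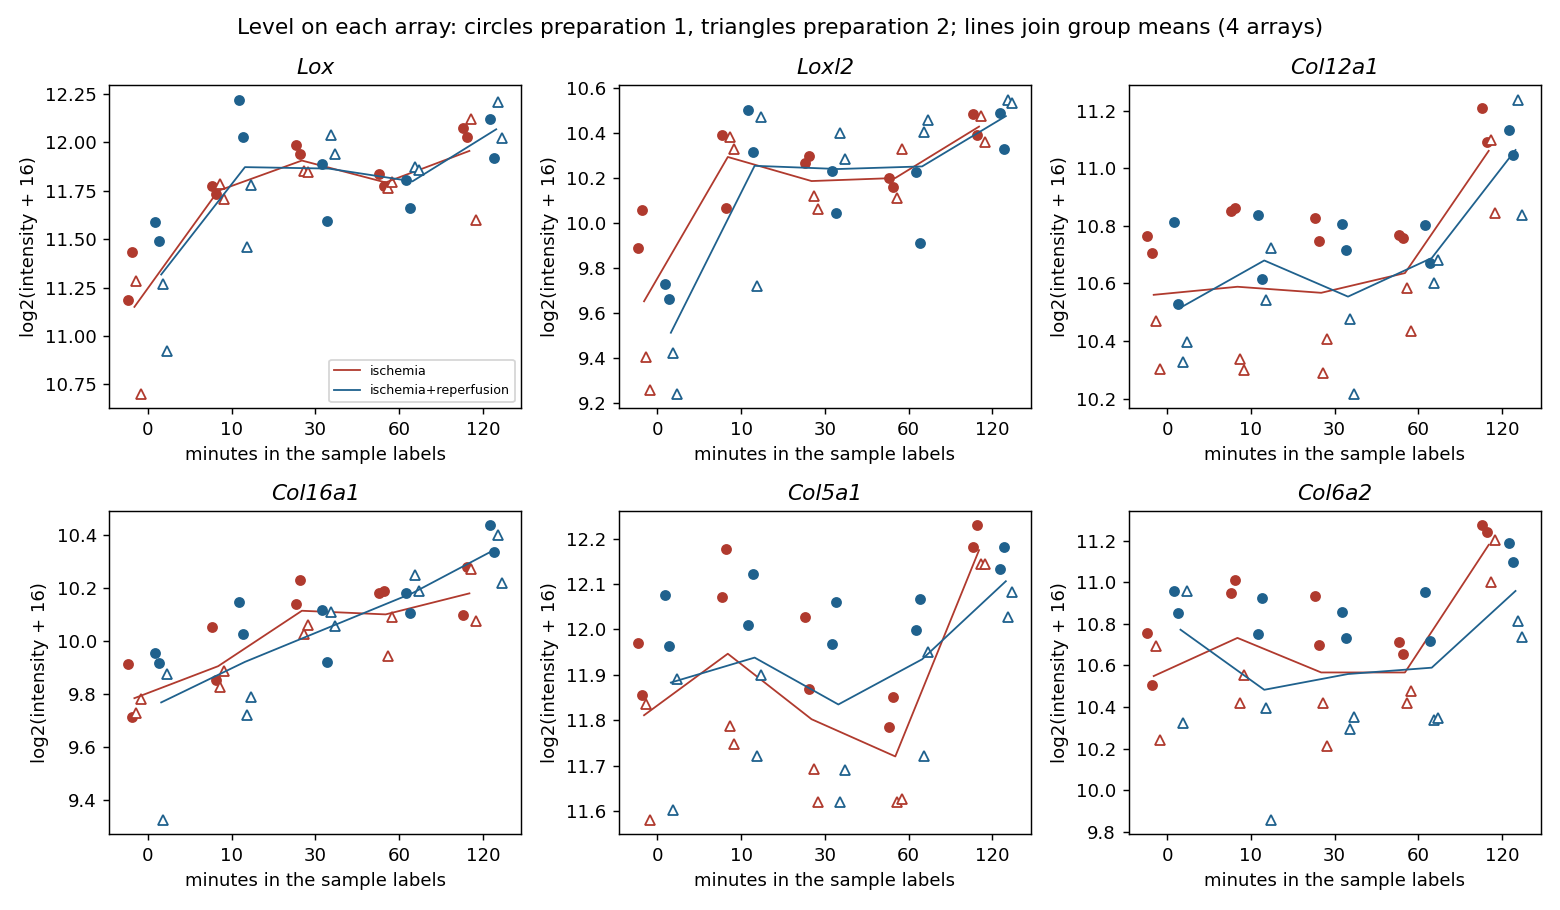
Level of 6 genes on each array over the minutes in the labels, on the log2(intensity + 16) scale; red is ischemia and blue ischemia+reperfusion, circles are preparation 1 and open triangles preparation 2, and lines join the means of 4 arrays. Lox and Loxl2 lie higher from 10 min on, while Col12a1, Col5a1 and Col6a2 in ischemia lie near their 0 min level until 60 min and higher at 120 min; the difference in time course was not tested.

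Among the MMPs only Mmp17, a membrane-anchored MMP, was called at 120 min. It stood at 9.04, 8.97, 9.02 and 8.97 at ischemia 0 min and at 9.44, 9.46, 9.56 and 9.20 at 120 min, a change of 0.42 ± 0.10 (1.34-fold, adjusted p = 0.0228). Without ischemia 120 min preparation 2, duplicate 1 it was 0.33 (adjusted p = 0.0993). The ischemia 0 min arrays of Mmp17 were low beside the other arm: its ischemia+reperfusion 0 min arrays lay at 9.12 to 9.30, all above them. Its 16 later ischemia arrays lay at 9.06 to 9.56, so some were no higher than that range. From 0 to 120 min of ischemia+reperfusion it changed by 0.075 and 0.325 in the 2 preparations. The groups overlapped, and it was not called. Mmp14, the membrane-bound collagenase that activates Mmp2, lay at 0.11 ± 0.10 in ischemia and -0.15 ± 0.10 in ischemia+reperfusion. Mmp2 lay at 1.44 ± 0.55 in ischemia (adjusted p = 0.102), and at 0.23 ± 0.13 without the array that stood apart (adjusted p = 0.263). Its other probe set gave -1.32 with that array and -0.25 without it. Mmp9, a gelatinase of inflammatory cells, was 7.52, 7.34, 7.41 and 7.42 at ischemia+reperfusion 0 min and 8.07, 8.17, 8.13 and 8.05 at 120 min, with no overlap; the change of 0.68 ± 0.27 was not called (adjusted p = 0.152). The other probe set of Mmp9 was called there, at 0.71 ± 0.19 (adjusted p = 0.0455). In ischemia the followed probe set changed by 0.496 and the other one by 0.47 (adjusted p = 0.114), neither of them called. The followed one lay at 7.524 to 8.035 at ischemia 0 min, all above its ischemia+reperfusion 0 min arrays (7.344 to 7.516). Mmp3, a stromelysin, changed by 0.28 ± 0.13 and 0.40 ± 0.13 (adjusted p = 0.157 and 0.0829).

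None of the 4 TIMPs was called at 120 min in either arm, with 3 and 1 of them at an unadjusted p under 0.05 in limma. Timp1, which inhibits most secreted MMPs, changed by 0.23 ± 0.08 in ischemia (adjusted p = 0.0753) and 0.25 ± 0.08 in ischemia+reperfusion (adjusted p = 0.0878). Timp3, which binds to the matrix, lay at 0.24 ± 0.12 and 0.10 ± 0.12. In ischemia its other tested probe sets lay at -0.728, -0.135 and 0.136. Without the array that stood apart they lay at -0.568, -0.126 and 0.168, and none was called either way. Timp2 lay at 0.52 ± 0.20 in ischemia and at 0.04 ± 0.07 without the array that stood apart. Its other probe set was called lower in ischemia at -0.91 (adjusted p = 0.0289), and stood at -0.38 without that array (adjusted p = 0.0652). Timp4, the inhibitor found mainly in heart, was 4.51, 6.63, 6.84 and 6.94 at ischemia 0 min, and its change was 0.92 ± 0.28 with all arrays (adjusted p = 0.0541) and 0.39 ± 0.15 without the first of them (adjusted p = 0.109).

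The ADAMTS proteases moved in both directions. Adamts1 and Adamts4, which cut the proteoglycans versican and aggrecan, rose in ischemia: Adamts1 went from 10.10, 9.94, 9.68 and 9.44 to 10.56, 10.63, 10.07 and 10.19, by 0.57 ± 0.15 (1.49-fold, adjusted p = 0.0319). Adamts4 went from 8.30, 8.28, 8.27 and 8.19 to 8.79, 8.82, 8.59 and 8.59, by 0.44 ± 0.11 (1.36-fold, adjusted p = 0.0237). Adamts1 groups overlapped only across preparations, and Adamts4 groups did not overlap. Adamts10, which associates with fibrillin, went from 6.97, 6.98, 7.40 and 6.09 to 7.66, 7.93, 7.82 and 8.35, by 1.08 ± 0.27 (2.11-fold, adjusted p = 0.0258), and by 0.75 without ischemia 0 min preparation 2, duplicate 2 (adjusted p = 0.101). In ischemia+reperfusion Adamts1 changed by 0.505 (adjusted p = 0.0688), Adamts4 by 0.151 (0.434) and Adamts10 by 0.448 (0.342), none of them called. Without 0 min preparation 2, duplicate 2 of that arm, Adamts1 was called at 0.64 (adjusted p = 0.0253). Adamts9, another versican-cutting protease, was 8.37, 8.26, 7.97 and 8.003 at ischemia+reperfusion 0 min and 8.79, 8.85, 8.95 and 8.53 at 120 min, a rise of 0.63 ± 0.17 (1.55-fold, adjusted p = 0.0479). That call was lost without any of 4 arrays of its groups (adjusted p from 0.0511 to 0.0794, for preparation 1, duplicate 2 and preparation 2, duplicate 1 of 0 min and of 120 min), and the gene's other probe set lay at 0.01. In ischemia Adamts9 changed by 0.445 and was not called. The change there was 0.267 without the array that stood apart (adjusted p = 0.328). Without ischemia 120 min preparation 2, duplicate 2 it was called at 0.547 (adjusted p = 0.0295). Adamts8 was called in no comparison, but its 16 later arrays of ischemia+reperfusion (8.0 to 8.54) all lay above its 0 min arrays (7.20 to 7.93), which held for 1 of 58 members and 0.66% of all probe sets.

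Adamts19 was the member that fell at 120 min of ischemia. At ischemia 0 min it stood at 8.46, 8.22, 8.52 and 8.57, at 10 min at 7.51, 7.49, 7.08 and 7.04, and at 120 min at 7.26, 7.73, 6.84 and 8.24. It fell by 1.16 on the log2 scale at 10 min (SE 0.25, adjusted p = 0.0425) and by 0.92 at 120 min (SE 0.25, adjusted p = 0.0342). The 10 min call was lost without the array that stood apart (adjusted p = 0.0611) or without 10 min preparation 2, duplicate 2 (0.0559), and the 120 min change without 120 min preparation 2, duplicate 1 was -0.58 (adjusted p = 0.269). In ischemia+reperfusion it stood at 8.26, 8.38, 8.48 and 6.17 at 0 min and at 7.49, 7.63, 6.65 and 6.97 at 120 min. The change there was -0.64 (adjusted p = 0.145), and -1.21 without 0 min preparation 2, duplicate 2 (adjusted p = 0.0132).

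**Figure D5:**
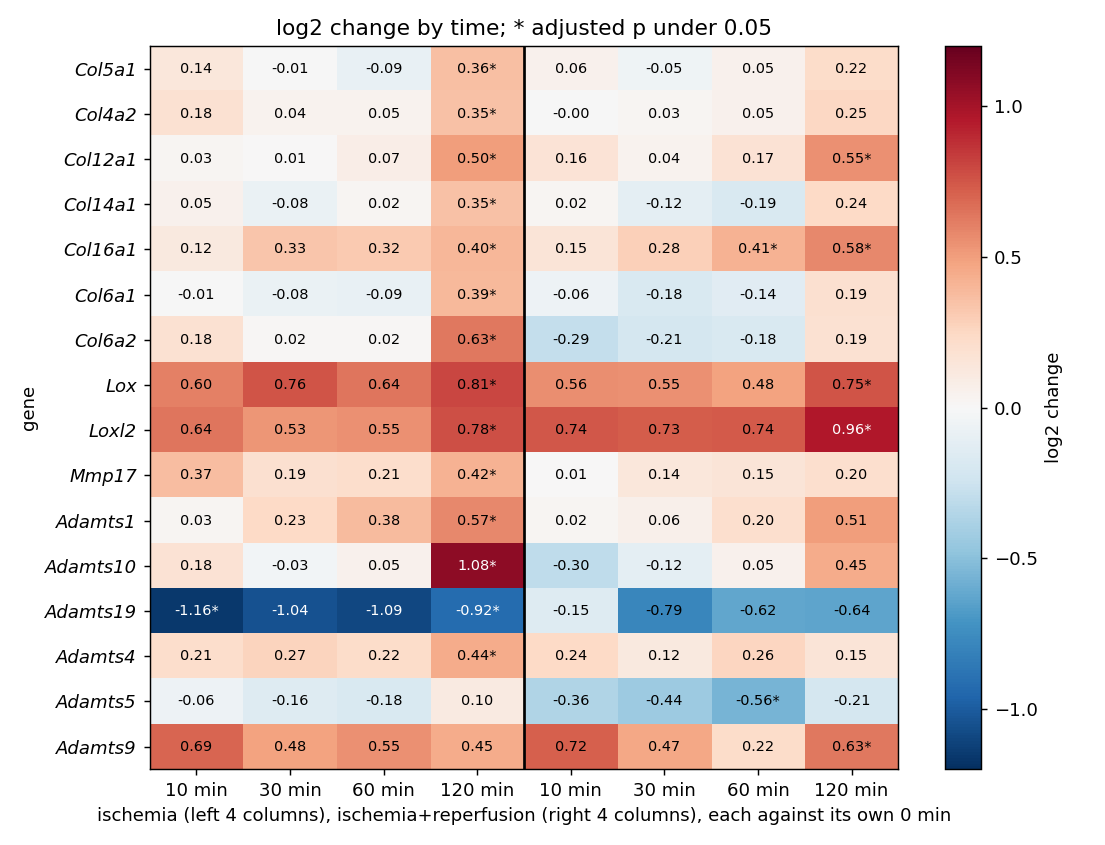
log2 change against the 0 min group of the same arm at 10, 30, 60 and 120 min, for the 16 members called in any of these comparisons; the left 4 columns are ischemia, the right 4 ischemia+reperfusion, and a star marks an adjusted p under 0.05. Lox and Loxl2 are red in all 8 columns, all 7 collagens shown are starred at 120 min of ischemia, and Adamts19 is below 0 in all 8.

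At the earlier times few members were called. At 10 min of ischemia 1 of 58 was called (Adamts19, lower; 0.838% of all probe sets were lower and 1.14% higher), and 0 were called at 30 and 60 min, with 12 and 16 at an unadjusted p under 0.05 in limma and 0.0966% and 0.129% of all probe sets called. In ischemia+reperfusion 0 were called at 10 and 30 min (10 and 11 at an unadjusted p under 0.05; 0.0376% and 0.784% of all probe sets called). At 60 min of that arm Col16a1 rose and Adamts5 fell, where 2.19% of all probe sets rose and 2.5% fell. Adamts5, an aggrecan-cutting protease, went from 8.05, 7.99, 7.52 and 8.13 to 7.44, 7.74, 6.93 and 7.35, and fell by 0.56 on the log2 scale (SE 0.10, adjusted p = 0.0153). The F test over all times of an arm called Col24a1, Col5a1 and Col6a2 in ischemia (3 of 58; 4.57% of all probe sets) and Adamts5 and Col16a1 in ischemia+reperfusion (2 of 58; 3.61%).

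Set against each other at the same time, the arms differed in few members. At 60 min Col24a1, a fibrillar collagen chain, was higher in ischemia+reperfusion (7.62, 7.48, 7.71 and 7.62) than in ischemia (7.15, 7.31, 7.21 and 6.91), by 0.46 ± 0.10 (1.37-fold, adjusted p = 0.0292). Adamts9 was lower there in ischemia+reperfusion (8.63, 8.57, 8.12 and 8.16 against 9.18, 8.81, 9.27 and 9.07), by -0.71 ± 0.17 (adjusted p = 0.0381). Neither pair of groups overlapped, 3.14% of all probe sets were higher and 2.24% lower, and both calls were lost without ischemia 60 min preparation 1, duplicate 1 (adjusted p = 0.0516 and 0.0895). At 0 min Adamts9 stood at 8.23 to 8.95 in ischemia and at 7.97 to 8.37 in ischemia+reperfusion. The arms thus already differed in that direction, with overlap. No member was called between the arms at 0, 10, 30 or 120 min (11, 4, 4 and 1 at an unadjusted p under 0.05 in limma; 0.333%, 0%, 0.532% and 0% of all probe sets). The difference between the arms in the change to 120 min was called for 0 members (6 at an unadjusted p under 0.05) and 0% of all probe sets, and the interaction over all times for 0 members (1 at an unadjusted p under 0.05, Col24a1, adjusted p = 0.116) and 0.00537% of all probe sets. A rise called in ischemia and not in ischemia+reperfusion is thus not shown to differ between them.

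Enzymes that prepare collagen chains moved in the same comparisons. Of 17 tested genes for collagen synthesis and processing, 9 rose and 0 fell at 120 min of ischemia (median 0.34), and 4 rose and 0 fell in ischemia+reperfusion (median 0.13). The 4 called in both arms were the prolyl hydroxylases P4ha1 (0.77 and 0.83) and P4ha2 (0.48 and 0.78) and the lysyl hydroxylases Plod1 (0.78 and 0.90) and Plod2 (0.43 and 0.34). Plod3, P3h3, Fkbp10, Mia3 and Bmp1 were called in ischemia. Serpinh1, the collagen chaperone, lay at 1.34 ± 0.53 in ischemia and at 0.09 ± 0.08 without the array that stood apart, and the list's count without that array was again 9. Of 23 tested other matrix proteins, 6 rose in ischemia (5 without that array), led in size by the basement membrane proteoglycan Hspg2 (0.80), and 2 rose in ischemia+reperfusion, Hspg2 (0.87) and Nid2 (0.58). Of 14 tested genes of the plasminogen system and other protease regulators, 3 rose in ischemia, the MMP inhibitor Reck (0.55), the protease inhibitor Tfpi2 (0.85) and Adam15 (0.55), with Adam17 as the fourth without that array (0.31), and 3 in ischemia+reperfusion, Reck (0.36), Tfpi2 (1.22) and Plaur (1.01), the urokinase receptor. None of the genes of these lists was called lower at 120 min. Over all probe sets tested, 6.45% rose and 6.48% fell at 120 min of ischemia, and 3.5% and 3.68% in ischemia+reperfusion.

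Markers of other cell types also moved. The counts below stand beside 6.45% of all probe sets higher and 6.48% lower at 120 min of ischemia. In ischemia+reperfusion these shares were 3.5% and 3.68%. In bulk arrays, more cells of a type and more RNA per cell cannot be told apart. At 120 min of ischemia 5 of 8 tested endothelial markers rose (Eng, Esam, Pecam1, Tek and Tie1, by 0.33 to 1.04), 8 of 8 lay above 0, and the list's summed level was 2973 to 4044 on the 0 min arrays and 4175 to 5190 on the 120 min arrays. Without the array that stood apart 6 rose, with Emcn. In ischemia+reperfusion 0 of 8 were called (2 at an unadjusted p under 0.05 in limma), with sums of 3048 to 4004 and 3960 to 4722. Of 10 fibroblast markers, Ddr2 (0.70) and Pdgfra (0.45) rose in ischemia and 0 did without the array that stood apart; the summed level was 34290 to 36670 at 0 min and 37750 to 38570 at 120 min. In ischemia+reperfusion Tcf21 fell (-0.61), and the sums were 36330 to 40530 and 36360 to 40670. Of 9 cardiomyocyte markers 0 were called in ischemia (1 at an unadjusted p under 0.05) and Myh7 rose by 0.33 in ischemia+reperfusion; the sums were 73380 to 91260 and 86920 to 90140 in ischemia and 83970 to 87870 and 86800 to 91160 in ischemia+reperfusion. Of 7 smooth muscle and pericyte markers Rgs5 rose in ischemia and Cspg4 in ischemia+reperfusion, with sums of 17740 to 19350 and 19260 to 20530, and of 14230 to 19420 and 15750 to 19290. Of 11 tested macrophage and leukocyte markers 0 were called in ischemia (3 at an unadjusted p under 0.05; 1 called without the array that stood apart, Fcer1g) and Mrc1 fell in ischemia+reperfusion; the sums over 13 genes were 7035 to 8637 and 8739 to 9861 in ischemia and 7861 to 9691 and 8090 to 10700 in ischemia+reperfusion. Cd163 was at the floor on all 40 arrays, and of 2 measured neutrophil markers S100a9 was at the floor on 39. The part of these cell types in the changes of the matrix genes was not tested.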

How the data were processed

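RNA of cultured rat ventricular myocytes was labelled as cRNA and hybridized to 40 Affymetrix arrays, per the labels' protocols. The deposited values are linear intensities per probe set, from -1725 to 17404, with 15.8% below 0. How the authors scaled them is not given in the sources used here. Arrays carry no read depth, so their number limits the precision.

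The intensities were quantile normalized, set to a floor of 0 and taken as log2(value + 16). Probe sets with a mean above the 40th percentile were tested, 18625 of 31042. Gene symbols are those of the platform annotation: 20826 probe sets had 1 symbol, 436 several and 9780 none. Duplicates were averaged to 20 values, and limma 3.58.1 in R 4.3.3 fitted the 10 groups with preparation as a block (9 residual df), with Benjamini-Hochberg adjustment over all tested probe sets; a call is an adjusted p under 0.05. The preparation number in the labels was taken to mark a cell preparation shared by all groups, which pairs the samples. The labels do not state this. The groups' preparation differences had a median correlation of 0.18, with a range of -0.18 to 0.53 and 34 of 45 values over 0.1. The fit was run on simulated data with independent noise, no preparation effect and changes larger than those of the called members. That run cannot show how well changes of the reported size are detected.

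Members called in any comparison and a list of cardiac matrix genes are named with values, and other genes come from lists of matrix pathways and cell type markers. The members and lists were chosen with earlier results of these data known. The check of exchanged probe sets, the values without the array that stood apart, and the values of further probe sets were added after seeing the data. Alternatives covered the scale, pseudocount, filter, preparation block, duplicates, probe set choice and single arrays.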

Additional observations from a re-analysis of the deposited data

Results flagged for a closer look

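In 11 of 143 gene and group pairs, 1 of the 4 arrays stood farther from the others than Dixon's 95% critical value allows, where chance gives about 1 in 20 groups. All values are log2(intensity + 16). Of these, 3 lay on the ischemia 0 min array of preparation 1, duplicate 1: Mmp2 at 6.71 (others 11.21 to 11.53), Timp2 at 10.10 (others 11.97 to 12.02) and Timp4 at 4.51 (others 6.63 to 6.94). In the same group Col15a1 was 8.71 in preparation 1, duplicate 2 (others 9.24 to 9.27), and Mmp3 was 6.64 in preparation 2, duplicate 2 (others 7.11 to 7.15). At ischemia+reperfusion 0 min, preparation 2, duplicate 1 held Mmp2 at 11.27 (others 11.70 to 11.77) and Col16a1 at 9.33 (others 9.88 to 9.96). In duplicate 2 of that preparation Adamts19 was 6.17 (others 8.26 to 8.48) and Timp2 was 12.35 (others 12.04 to 12.09). At 120 min Timp1 was 12.47 in ischemia preparation 2, duplicate 2 (others 12.26 to 12.28), and Timp2 was 12.15 in ischemia+reperfusion preparation 2, duplicate 1 (others 12.10 to 12.11).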

How the results depend on the processing

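Of 73 changes of named genes followed over the alternatives, 24 were called with all arrays, and 0 of these changed sign. Of all 73, 20 changed sign under at least 1 alternative, 14 of them on the deposited scale, and each of the 20 was at most 0.24 in size with all arrays. Col24a1 at 120 min of ischemia, for example, went from 0.004 to -0.10 without the array that stood apart. The members' median at 120 min of ischemia+reperfusion turned from 0.05 to -0.05 on the deposited scale and to -0.01 with median centring, where the median of all probe sets was -0.12 and -0.09. At 120 min the counts of called members (14 in ischemia, 5 in ischemia+reperfusion) were 4 and 1 on the deposited scale, 5 and 3 with no replicate block, and 19 and 14 with all 40 arrays as samples and a correlation of 0.08 between duplicates. Leaving out 1 array gave 9 to 19 and 4 to 8. The other counts were small and moved more. At 10 min of ischemia (1 called) the count was 0 on the deposited scale, with no filter, with no replicate block and without 3 arrays (the one that stood apart and the pair of 120 min arrays with the widest gap to another group, an alternative chosen after seeing the data), 2 without that pair, and 0 to 2 without 1 array. At 60 min of ischemia+reperfusion (2 called) it was 0 on the deposited scale and with no replicate block, 1 with no filter and without the 3 arrays, and 2 to 7 without 1 array. Between the arms at 60 min (2 called) it was 1 with no filter, a filter at the 60th percentile, no replicate block, and without the pair or the 3 arrays, and 0 to 2 without 1 array. At 120 against 10 min of ischemia (0 called) it was 2 on the deposited scale and without the 3 arrays, and 1 without the pair. The F test in ischemia (3 called) gave 5 with a pseudocount of 64 and with every probe set, 0 with no replicate block, 7 without the pair, 6 without the 3 arrays and 0 to 7 without 1 array. That in ischemia+reperfusion (2 called) gave 0 on the deposited scale, with no replicate block and without the pair or the 3 arrays, 1 with median centring, no filter or the 60th percentile, and 0 to 2 without 1 array. With all 40 arrays as samples these counts were 6, 10, 4, 9, 22 and 15, and those at 30 and 60 min of ischemia and 10 and 30 min of ischemia+reperfusion (0 called each) were 1, 1, 5 and 5. Without 1 array, the counts at 10 and 30 min of ischemia+reperfusion were 0 to 2 and 0 to 1. The cause of these moves was not tested. With 2 preparations a group and a median SE of 0.12 on the log2 scale, small changes were not detectable.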
